A study of Mus musculus with 24 samples.

Results

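The Kruppel-like factors measured here were Klf2, Klf3, Klf4, Klf5, Klf6, Klf7, Klf9, Klf10, Klf13 and Klf15. They are 10 of 23787 genes named on the array and were taken by symbol, with earlier results of these data known and no threshold on measured values: every probe whose transcript accession mapped to one of these genes was taken, which gave 13 of 56605 probes. The hippocampus of 48 male Swiss-Webster mice aged 12 weeks was compared on 24 two-colour microarrays, 8 mice for each of 6 groups. Corticosterone-treated mice drank water with 100 µg/ml corticosterone and 0.45% hydroxypropyl-β-cyclodextrin over the 12 h dark phase, and control mice drank the same cyclodextrin, the carrier, alone. The animals were killed in the first, the fifth or the ninth hour of the light phase, their resting period. Each array carried 1 control mouse (Cy3 dye) and 1 corticosterone-treated mouse (Cy5 dye) of the same hour. Dyes were never exchanged, so any constant difference between the dyes for a probe is part of each comparison of treated with control mice. That difference cancels in comparisons between hours within a treatment and in differences of the corticosterone effect between hours.

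Kruppel-like factors are transcription factors that bind GC-rich and CACCC sequences through zinc fingers at the end of the protein. By the partners that they recruit they are usually divided into CtBP-binding repressors (Klf3), a group known mostly as activators (Klf2, Klf4, Klf5, Klf6 and Klf7) and Sin3-binding factors (Klf9, Klf10 and Klf13), with Klf15 apart. Klf9 and Klf15 are known targets of the glucocorticoid receptor, while Klf2 and Klf4 are best known from the endothelium, where blood flow induces them.

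The brightest probe of every member was well above background in all 48 channels (2 dyes on 24 arrays). Its mean signal intensity, which is the normalized brightness of a spot in arbitrary units, ranged from 220 for Klf5 to 6669 for Klf9, and levels of different probes are not comparable with each other. Klf3, Klf7 and Klf10 had a second probe each. The second Klf10 probe was well above background in 1 of 48 channels. Its group means were 23.4 to 24.5 in control and 15.2 to 18.4 in treated mice, and no fold change is given for it. Its adjusted p was under 0.05 at all 3 hours, but at background level and with dyes never exchanged nothing is read from it about Klf10. All 12 neuronal, 8 astrocyte, 8 oligodendrocyte, 8 microglial, 8 endothelial and 8 mural marker genes were well above background on every array, while 1 of the 8 choroid plexus markers was above background on none. Spots well above background made up 57.9% to 64.2% of an array in Cy3 and 61.0% to 70.4% in Cy5. One array stood apart: on the array of replicate 7 of the fifth hour, 1703 of 32033 probes with a mean intensity of 50 or more lay over 1 log2 unit below their median over all arrays in both dyes, against 4 to 171 probes on each of the other 23. Results that changed without that array are given both ways. In these whole-tissue samples, fewer cells of a type and less RNA per cell cannot be told apart.

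Klf15, a regulator of amino acid and fat metabolism, had the largest difference between treated and control mice among the brightest probes of the 10 members at any of the 3 hours. Signal intensity in the first hour was between 1257 and 1606 (median 1447) in 8 control mice and between 1683 and 3296 (median 2187) in 8 corticosterone-treated mice, and the groups did not overlap. At hour 5 it ranged from 1067 to 1514 (median 1317) in control mice and from 1304 to 1908 (median 1411) in treated mice. In the ninth hour the ranges were 1278 to 1834 (median 1473) and 1347 to 1627 (median 1432). The treated group was thus high in the first hour, and the groups overlapped in the other two.

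Expressed as a log2 fold change, Klf15 was higher in corticosterone-treated than in control mice by 0.62 (SE 0.08, 1.53-fold) in the first hour, on 8 of 8 arrays, with an adjusted p of 8.1e-08 by the separate channel test of limma. At that hour 17.5% of all probes passed the same test, and 24.4% of the 15437 named genes whose brightest probe had a mean intensity of 50 or more. At hour 5 the difference was 0.20 (95% interval 0.04 to 0.36, adjusted p = 0.066, higher on 6 of 8 arrays) and in the ninth hour -0.07 (95% interval -0.23 to 0.09, adjusted p = 0.59). The fifth-hour difference did pass with slide as a block (adjusted p = 0.041), without slide 3 (0.27, adjusted p = 0.045), with another between-array scaling, Aquantile (0.21, adjusted p = 0.038), and with the deposited ratios (0.22, adjusted p = 0.035). In the treated mice Klf15 fell by 0.57 (SE 0.09) from the first to the fifth hour, with an adjusted p of 1.4e-04, and by 0.61 (SE 0.09) from the first to the ninth, with an adjusted p of 6.2e-06. Between these hours 0.546% and 4.02% of all probes changed in the treated mice. In control mice the difference between hours 1 and 9 was 0.08 (95% interval -0.11 to 0.27, adjusted p = 0.86). The corticosterone effect itself was smaller in the ninth than in the first hour by a log2 difference of -0.69 (SE 0.11, adjusted p = 6.6e-05), a test passed by 0.827% of all probes and by 2.18% of the brighter named genes. Within slides 1, 2 and 3 the first-hour difference was 0.55, 0.50 and 0.77.

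**Figure D1:**
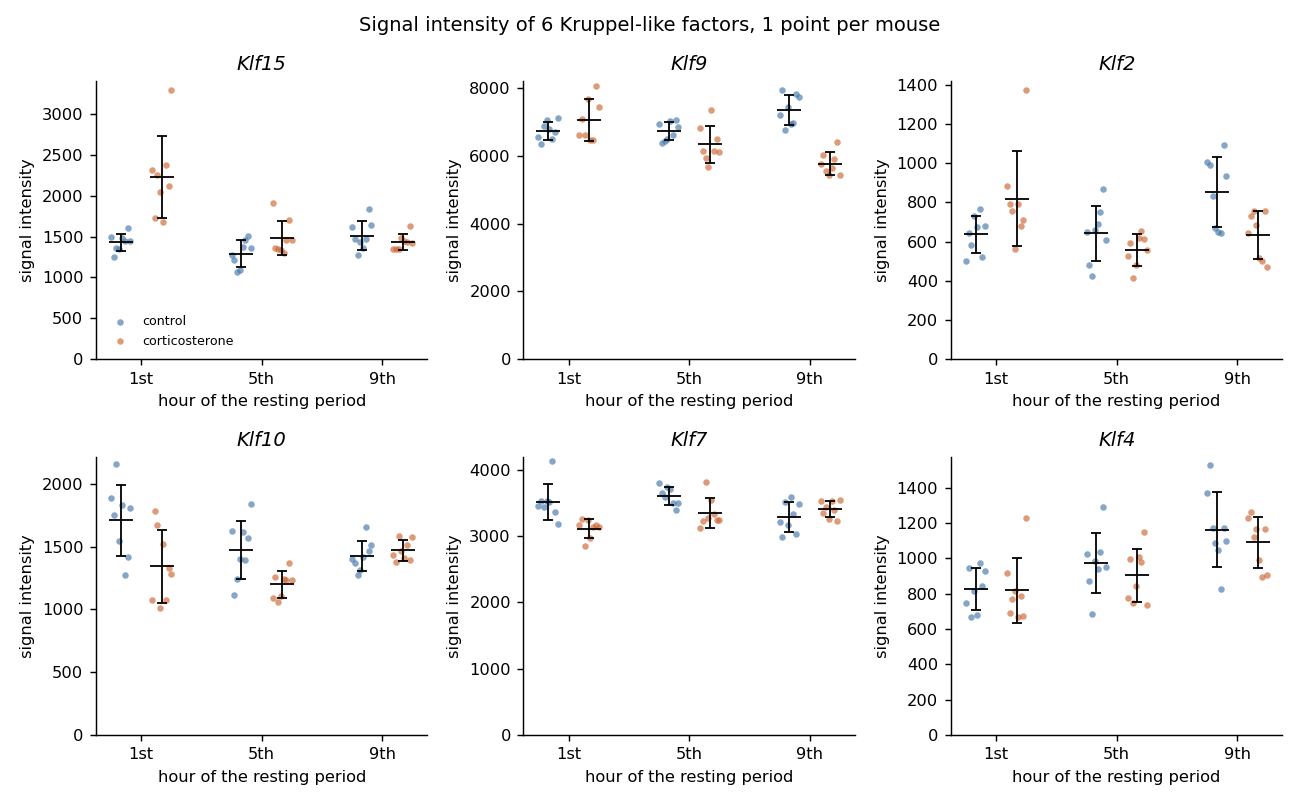
Signal intensity (vertical axis, arbitrary units) of the brightest probe of 6 members against the hour of the resting period, with 1 point per mouse, control mice in blue, corticosterone-treated mice in orange, and the mean and SD of 8 mice in black. The 8 treated mice lie above all 8 control mice for Klf15 in the first hour and below all 8 for Klf9 in the ninth.

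The promoter of Klf15 is shown because its level moved with the hour after treatment, and that of Klf9, the other known receptor target, for comparison. The RefSeq table of promoters (GRCm38.p6, 250 bases before to 50 after a start) holds 8 of the 10 members and 32851 windows in all. The Klf15 window, chr6:90462326-90462625 on the plus strand, lies around a start inside the annotated gene (90461043 to 90491803). Capitals mark matches on either strand to CACGTG (an E-box), GGGCGG or CCACCC (GC and CACCC boxes), TGACGTCA (a cyclic AMP response element), TTATGCAA (a D-box), AGAACA and ACANNNTGT (parts of the glucocorticoid response element) and the full consensus of that element.
Klf15: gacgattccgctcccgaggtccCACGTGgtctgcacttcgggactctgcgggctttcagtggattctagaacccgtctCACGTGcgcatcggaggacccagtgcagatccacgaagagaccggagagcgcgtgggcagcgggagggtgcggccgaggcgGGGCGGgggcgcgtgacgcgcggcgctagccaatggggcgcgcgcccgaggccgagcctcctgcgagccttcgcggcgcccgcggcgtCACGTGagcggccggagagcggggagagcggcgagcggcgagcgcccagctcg
Klf9: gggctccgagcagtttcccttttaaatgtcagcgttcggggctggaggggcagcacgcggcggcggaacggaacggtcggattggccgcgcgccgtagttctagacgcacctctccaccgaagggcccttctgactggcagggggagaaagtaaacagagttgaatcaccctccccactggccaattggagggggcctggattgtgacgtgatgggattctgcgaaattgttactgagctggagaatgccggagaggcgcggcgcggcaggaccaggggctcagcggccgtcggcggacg
The Klf15 window held CACGTG 3 times, first bases at -228, -172 and -3 from the start, and 1 GGGCGG; 7.15% of all windows hold CACGTG and 35.7% hold GGGCGG. The Klf9 window, chr19:23140976-23141275 on the plus strand, held none of the 8 motifs, which says only that these letters are not in these 300 bases. Neither AGAACA, present in 19% of all windows, nor ACANNNTGT, present in 6.85%, nor the full glucocorticoid consensus, present in 0.222%, was found in any of the 8 member windows.

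Genes reported as targets of Klf15 in metabolism, mostly of amino acids, were set beside it. Of 9 measured, 6 were higher in treated mice in the first hour, among them Prodh, Aass, Gpt2 and Pdk4, and none was lower, while 24.4% of the brighter named genes passed; the median over the 9 was 0.55, against -0.00 over the brighter named genes. Prodh, the first enzyme of proline breakdown, was higher by 0.70 (SE 0.06, adjusted p = 2.3e-13) and Pdk4, an inhibitor of pyruvate dehydrogenase, by 0.85 (SE 0.09, adjusted p = 2.2e-10). At hour 5, when Klf15 itself did not pass in the main fit, 6 of the 9 were higher and none lower. The median was then 0.36, and 23.7% of the brighter named genes passed. In the ninth hour 4 of the 9 were higher and none lower, while 16.5% of the brighter named genes passed. Among the 4 were Aass, an enzyme of lysine breakdown (0.59, adjusted p = 4.3e-06), and Prodh (0.32, adjusted p = 7.5e-05). The effect on Prodh, Gpt2 and Pdk4 was smaller in the ninth than in the first hour (log2 differences -0.38, -0.64 and -0.89), and that on the other 6 did not pass the test of this difference.

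Klf9 followed another course. Its intensity in the first hour was 6367 to 7119 (median 6764) in control and 6471 to 8082 (median 6865) in corticosterone-treated mice, so that the groups overlapped. At hour 5 it was 6394 to 7057 (median 6750.1) and 5669 to 7365 (median 6154). In the ninth hour it was 6781 to 7956 (median 7335) in control mice and 5430.0 to 6415 (median 5701) in treated mice, with each treated mouse below every control mouse.

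The log2 difference of Klf9 between treated and control mice was 0.06 (95% interval -0.02 to 0.15, adjusted p = 0.29) in the first hour, -0.09 (95% interval -0.18 to -0.00, adjusted p = 0.10) in the fifth and -0.35 (SE 0.04, 0.785-fold, adjusted p = 2.0e-08) in the ninth, when it was lower on 8 of 8 arrays. In the ninth hour 14% of all probes and 16.5% of the brighter named genes passed the test. The effect was lower in the ninth than in the first hour by a log2 difference of -0.41 (SE 0.06, adjusted p = 2.5e-06) and than in the fifth by -0.26 (SE 0.06, adjusted p = 0.031). Of all probes, 0.083% passed the latter test, and Klf9 lost it with p values from intensities without offset (adjusted p = 0.086), without each of the 3 slides (adjusted p = 1, 0.095 and 0.36) and without the array that stood apart (adjusted p = 0.068). In treated mice Klf9 fell from the first to the ninth hour by 0.29 (SE 0.05, adjusted p = 2.9e-05), again with no overlap. In control mice the difference between these hours was 0.12 (95% interval 0.02 to 0.22, adjusted p = 0.28). The ninth-hour difference was -0.37, -0.27 and -0.40 within slides 1, 2 and 3.

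The other Sin3-binding members were Klf10 and Klf13. Klf10, also called TIEG1 and induced early by TGF-β, ranged in the first hour from 1273 to 2161 (median 1782) in control mice and from 1012 to 1785 (median 1307) in treated mice. At hour 5 the ranges were 1114 to 1842 (median 1486) and 1057 to 1370.0 (median 1235), and in the ninth 1274 to 1660 (median 1411) and 1380 to 1585 (median 1451). Treated mice were low in the first 2 of these hours, with overlap. Klf10 was lower in corticosterone-treated mice by a log2 difference of -0.36 (SE 0.09, 0.781-fold, adjusted p = 0.0017) in the first hour and -0.29 (SE 0.09, adjusted p = 0.011) in the fifth, on 7 of 8 arrays each, and the difference was 0.05 (95% interval -0.13 to 0.22, adjusted p = 0.77) in the ninth. Of all probes, 18.1% passed at hour 5, and 23.7% of the brighter named genes. The change of this effect between hours 1 and 9, 0.40 (SE 0.12), had an adjusted p of 0.10. Without slide 2 the first-hour difference was -0.32 (adjusted p = 0.053), and the fifth-hour difference was -0.27 without slide 2 (adjusted p = 0.084) and -0.27 without slide 3 (adjusted p = 0.12). The difference between hours 5 and 9 in treated mice, 0.30 (SE 0.10, adjusted p = 0.18), did not pass although the 8 mice of the ninth hour lay above all 8 of the fifth. In that comparison 0.661% of all probes and none of the members passed by limma. An unadjusted p under 0.05 was met by 3 of the 10, and the share of all probes at that threshold was not counted.

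Klf13, a GC-box factor close to Klf9, passed or did not pass with the choice of test and arrays. In the first hour it ranged from 3591 to 4074 (median 3928) in control and from 3286 to 5399.8 (median 4524) in treated mice, with the treated mouse higher on 7 of 8 arrays. The log2 difference was 0.23 (95% interval 0.01 to 0.45) with an adjusted p of 0.12. In the fifth hour both mice of the array that stood apart were lowest, at 1856 against 3456 to 5349 in the other control mice and at 2091 against 3945 to 4869 in the other treated mice. The main fit shares 1 spread per probe over all hours, so that array also entered the first-hour SE of 0.11. Without that array the first-hour difference was 0.23 (SE 0.07, adjusted p = 0.013), and without slide 3 it was 0.25 (adjusted p = 0.017). With all arrays kept it passed in a test of the log2 ratio of each array (adjusted p = 0.024), in a separate fit for the hour (0.025), with the deposited ratios (0.025) and with the processed signals of the scanner software (0.041). In the fifth and ninth hours Klf13 differed by 0.13 (95% interval -0.09 to 0.35) and -0.01 (95% interval -0.23 to 0.21).

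**Figure D2:**
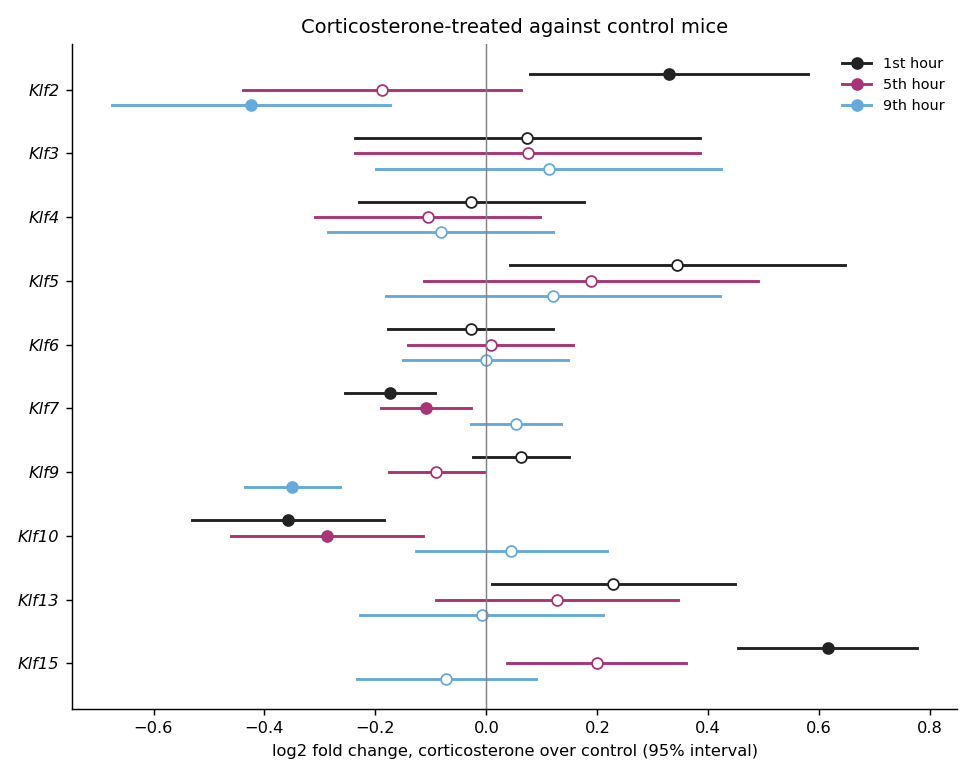
Log2 fold change of corticosterone-treated over control mice (horizontal axis) for the brightest probe of the 10 members at hours 1, 5 and 9, with 95% intervals and filled points where the adjusted p was under 0.05. Filled points are Klf2, Klf7, Klf10 and Klf15 in the first hour, Klf7 and Klf10 in the fifth, and Klf2 and Klf9 in the ninth.

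Among the activators, Klf2, a factor of quiescent endothelium and T cells, was on opposite sides of the control in the first and ninth hours. It ranged from 503 to 764 (median 658) in control and from 563 to 1372 (median 772) in treated mice in the first hour. The ranges were 425 to 866 (median 655) and 412 to 656 (median 575) in the fifth hour. In the ninth they were 646 to 1095 (median 885) and 472 to 759 (median 665). The groups overlapped at each hour, and the highest first-hour value, 1372, was that of 1 treated mouse. The log2 difference was 0.33 (SE 0.12, 1.26-fold, adjusted p = 0.049) in the first hour on 6 of 8 arrays, -0.19 (95% interval -0.44 to 0.06, adjusted p = 0.29) in the fifth and -0.42 (SE 0.12, 0.745-fold, adjusted p = 0.013) in the ninth, lower on 7 of 8 arrays. The difference between these effects was -0.75 (SE 0.18, adjusted p = 0.011). Between hours 1 and 9 the log2 difference of Klf2 was 0.41 (95% interval 0.11 to 0.70, adjusted p = 0.24) in control and -0.35 (95% interval -0.64 to -0.06, adjusted p = 0.17) in treated mice.

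The calls of Klf2 changed when single slides were left out. Its first-hour difference had an adjusted p of 0.059 with p values from intensities without offset. In a separate fit for the hour it was 0.071. The difference was 0.25 (adjusted p = 0.26) without slide 1, 0.27 (adjusted p = 0.22) without slide 3, and 0.33 (adjusted p = 0.051) without the array that stood apart. Without slides 1 and 3 in turn the ninth-hour difference was -0.55 (adjusted p = 0.079) and -0.31 (adjusted p = 0.11), and the difference between the effects -0.80 (adjusted p = 0.22) and -0.58 (adjusted p = 0.28). Within slides 1, 2 and 3 the first-hour value was 0.56, 0.08 and 0.43 and the ninth-hour value -0.30, -0.34 and -0.76.

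Markers of endothelial cells moved in both directions at the same time. In the first hour 2 of 8 were higher in treated mice (Pecam1 and Ly6c1) and 2 lower (Cldn5 and Flt1), and their summed intensity was 14832 to 18391 in control and 14362 to 15701 in treated mice. In the ninth hour Cldn5, a tight junction protein, was higher by 0.24 (adjusted p = 0.0081) and Flt1, a VEGF receptor, lower by a log2 difference of -0.37 (adjusted p = 3.1e-04), with sums of 15092 to 18401 and 13549 to 17197. Of 8 genes reported as targets of Klf2 and Klf4 in endothelium, 4 were lower in treated mice in the first hour (Nos3, Thbd, S1pr1 and Tek) and none higher, where 24.4% of the brighter named genes passed. At hour 9 S1pr1 was lower by a log2 difference of -0.14 (adjusted p = 0.04), none was higher, and the median over the 8 was 0.07; 16.5% of the brighter named genes passed then. The effect on Nos3 differed between hours 1 and 9 by 0.25 (adjusted p = 0.035). The part of cell composition in the Klf2 result was not tested.

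Klf4, a factor of endothelium and of pluripotent cells, changed with the hour in both treatments. In control mice it was 668 to 976 (median 831) in the first hour, 685 to 1295 (median 969) in the fifth and 827 to 1532 (median 1135) in the ninth. Treated mice gave 665 to 1228 (median 778), 735 to 1151 (median 912) and 894 to 1266 (median 1143). Levels thus rose over the resting period in both groups, with overlap between hours. Klf4 was higher in the ninth than in the first hour by 0.49 (SE 0.12, 1.40-fold, adjusted p = 0.026) in control mice, in which 0.537% of all probes and 1.28% of the brighter named genes passed, and by 0.43 (SE 0.12, 1.35-fold, adjusted p = 0.017) in treated mice, in which 9.15% of the brighter named genes passed. It was the 1 member that passed in control mice. The rise did not pass without slide 1 (0.34, adjusted p = 0.89, in control and 0.29, adjusted p = 0.56, in treated mice) or without slide 2 (0.48, adjusted p = 0.094, and 0.44, adjusted p = 0.081). Hours 1, 5 and 9 had 2, 2 and 4 arrays on slide 1 and 3, 3 and 2 on each other slide, so comparisons between hours were also made with slide as a block, which gave 0.46 (adjusted p = 0.026) and 0.40 (adjusted p = 0.018). Corticosterone differences of Klf4 at the 3 hours lay between -0.11 and -0.03, with 95% intervals that together reached from -0.31 to 0.18. Of the 8 endothelial markers, Tie1, an endothelial receptor, was higher by 0.44 (adjusted p = 0.0032) and Cldn5 lower by a log2 difference of -0.34 (adjusted p = 0.02) at hour 9 than at hour 1 in control mice, where their summed intensity was 14832 to 18391 at hour 1 and 15092 to 18401 at hour 9. In treated mice both Tie1 (0.61, adjusted p = 2.7e-06) and Cldn5 (0.27, adjusted p = 0.027) were higher at hour 9, none of the 8 was lower, and the median over the 8 was 0.17, against 0.02 over the brighter named genes. The summed intensity in treated mice was 14362 to 15701 at hour 1 and 13549 to 17197 at hour 9. Their part in the rise of Klf4 was not tested.

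**Figure D3:**
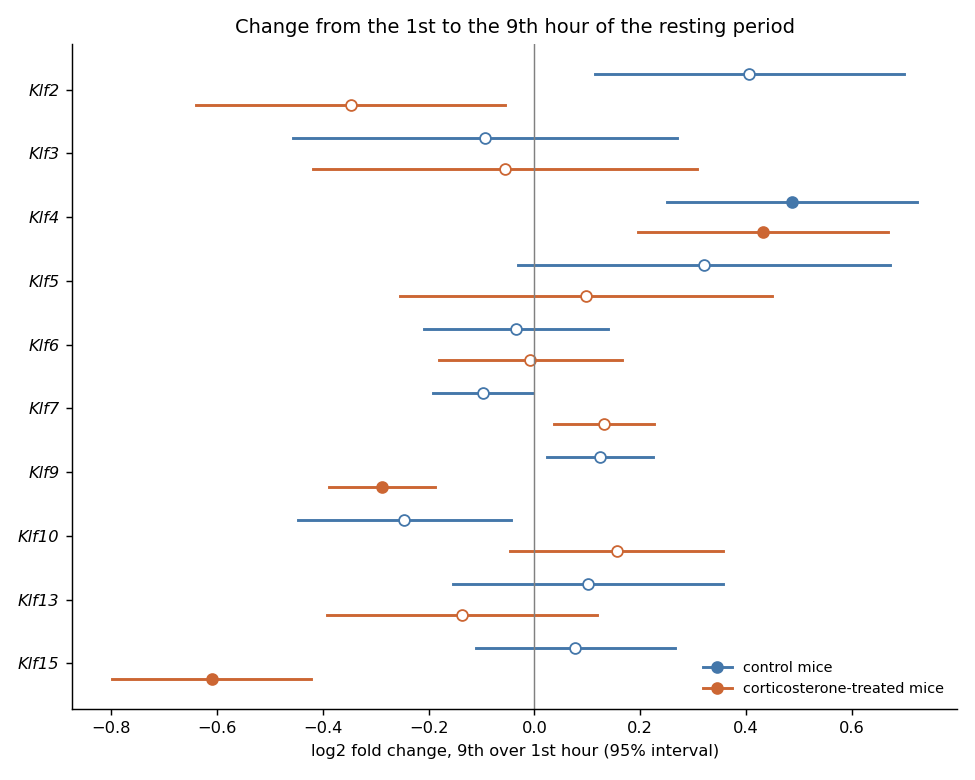
Log2 fold change between hours 1 and 9 (horizontal axis, with 95% intervals) in control and in corticosterone-treated mice for the brightest probe of the 10 members, filled where the adjusted p was under 0.05. Klf4 rose in both groups, while Klf9 and Klf15 fell in treated mice and did not pass the test in control mice.

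The promoters of these endothelial factors are shown because their levels changed with treatment or hour; capitals have the meaning given for Klf15. They are chr8:72318812-72319111 on the plus strand and chr4:55532426-55532725 on the minus strand.
Klf2: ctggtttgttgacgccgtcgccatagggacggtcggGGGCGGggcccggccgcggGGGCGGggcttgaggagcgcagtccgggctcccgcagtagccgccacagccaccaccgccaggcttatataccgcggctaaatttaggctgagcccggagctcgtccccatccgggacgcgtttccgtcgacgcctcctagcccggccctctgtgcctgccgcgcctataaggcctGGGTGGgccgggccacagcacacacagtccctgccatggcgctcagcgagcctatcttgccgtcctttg
Klf4: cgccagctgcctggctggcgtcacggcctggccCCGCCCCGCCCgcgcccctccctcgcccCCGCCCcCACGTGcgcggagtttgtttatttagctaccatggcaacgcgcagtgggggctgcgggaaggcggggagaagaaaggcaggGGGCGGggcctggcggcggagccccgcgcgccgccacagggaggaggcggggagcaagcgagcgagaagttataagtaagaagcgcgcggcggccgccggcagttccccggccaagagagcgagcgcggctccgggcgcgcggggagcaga
Klf2 held 2 GGGCGG and 1 CCACCC, which is in 31.5% of all windows, and Klf4 held 4 GGGCGG and 1 CACGTG. The CACGTG letters were thus in the windows of Klf4, Klf6 and Klf15. The windows of Klf2, Klf3, Klf4, Klf6, Klf7, Klf13 and Klf15 all held GGGCGG. Their content of G and C was 58.3% to 76.7%. TGACGTCA (1.79% of all windows) and TTATGCAA (0.743%) were in none of the 8.

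Klf7, which is needed for axon growth of neurons, was slightly lower in treated mice at first. In the first hour its intensity was 3187 to 4135 (median 3486) in control and 2849 to 3252 (median 3152) in treated mice. In the fifth hour it was 3393 to 3795 (median 3619.8) and 3120.0 to 3819.5 (median 3262), and in the ninth 2981 to 3584 (median 3279) and 3227 to 3544 (median 3421). The control median was above the treated one in the first 2 hours and below it in the last, with overlap throughout. The log2 difference was -0.17 (SE 0.04, 0.886-fold, adjusted p = 6.3e-04) in the first hour, lower on 8 of 8 arrays, -0.11 (SE 0.04, adjusted p = 0.033) in the fifth, lower on 7 of 8, and 0.05 (95% interval -0.03 to 0.14, adjusted p = 0.35) in the ninth. Between hours 1 and 9 the effect changed by 0.23 (SE 0.06, adjusted p = 0.013). This change did not pass without slide 1, 2 or 3 (0.22, 0.22 and 0.23, adjusted p = 0.37, 0.17 and 0.15). The change had an adjusted p of 0.053 with the deposited ratios. The fifth-hour difference did not pass in 10 of 21 alternatives. These were the fits without slide 1 (-0.07, adjusted p = 0.36) or slide 3 (-0.12, adjusted p = 0.094), the 3 fits within 1 slide, the paired test on array log ratios (adjusted p = 0.054), p values without offset (0.054), Aquantile scaling (0.053), a separate fit for the hour (0.066) and the deposited ratios (0.075). A second, dimmer Klf7 probe gave -0.04 (95% interval -0.17 to 0.10, adjusted p = 0.73), 0.06 (adjusted p = 0.53) and 0.10 (adjusted p = 0.34) at the 3 hours and did not pass at any, so the lower level was measured by 1 of the 2 probes. The 2 dyes were not balanced, and with a difference this small a constant dye difference cannot be told apart from treatment in the first hour alone.

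**Figure D4:**
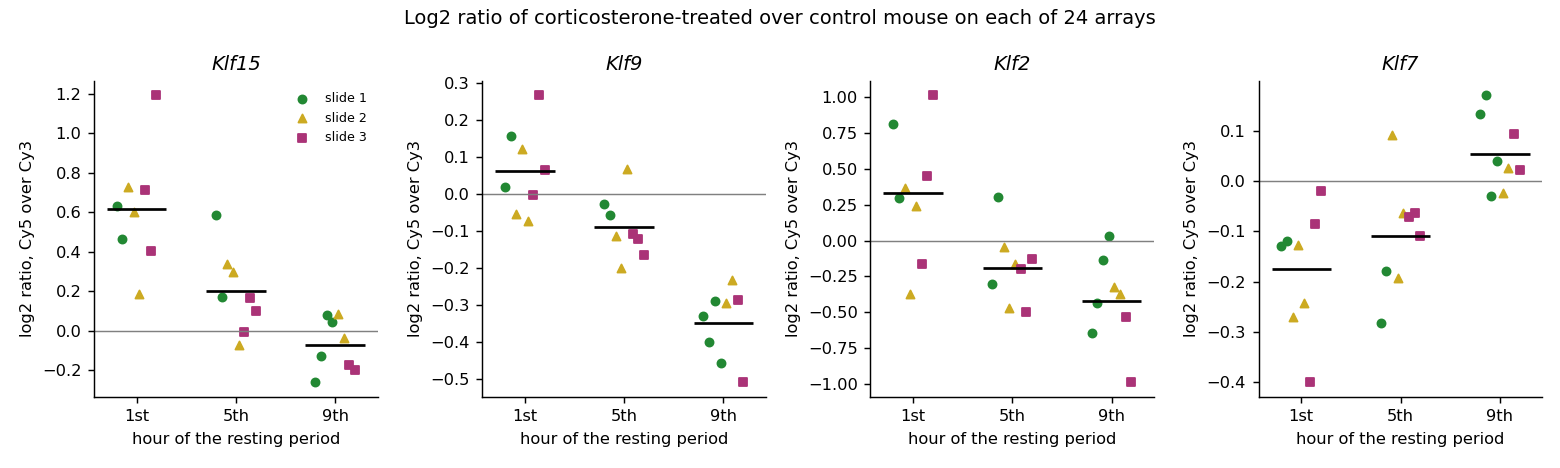
Log2 ratio of the corticosterone-treated over the control mouse on each array (vertical axis) against the hour for the 4 members with a different corticosterone effect at hours 1 and 9, with slides 1, 2 and 3 as circles, triangles and squares and the mean of 8 arrays as a bar. All 8 arrays lie above 0 for Klf15 in the first hour and below 0 for Klf9 in the ninth.

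Of the remaining members, none passed a comparison. Klf3, a CtBP-binding repressor, gave log2 differences of 0.07, 0.07 and 0.11 between treated and control mice at the 3 hours, with 95% intervals from -0.24 to 0.42; the array that stood apart held its lowest values in the fifth hour, 932 in the control and 942 in the treated mouse, while its second probe read 659.9 and 770.2 there, of which the latter was the highest of its group. That second probe passed no comparison either, and its difference at hour 5 was -0.03 (95% interval -0.22 to 0.16). All 6 groups share 1 spread per probe in the fit. The array that stood apart thus also entered the intervals of the brightest Klf3 probe at hours 1 and 9. The log2 ratios of that brightest probe on 8 arrays had an SD of 0.12, 0.13 and 0.12 at the 3 hours. Klf6, an injury-induced factor, had group means between 1936 and 2014 and differences of -0.03, 0.01 and -0.00, with 95% intervals from -0.18 to 0.16. Klf5 is known from proliferating epithelium. Its probe gave the lowest mean signal of the members' brightest probes, which does not rank its expression. Its difference was 0.34 (95% interval 0.04 to 0.65, adjusted p = 0.11) in the first hour, when 1 control mouse read 72.0 against 156 to 243 in the other 7, then 0.19 (adjusted p = 0.38) and 0.12 (adjusted p = 0.61).

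**Figure D5:**
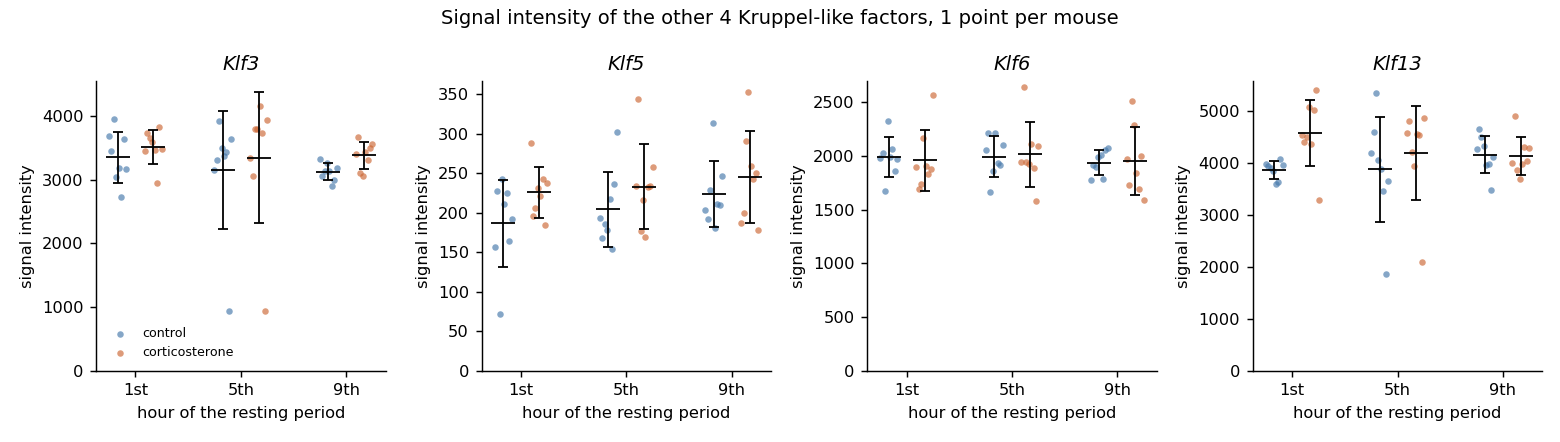
Signal intensity (vertical axis, arbitrary units) of the brightest probe of Klf3, Klf5, Klf6 and Klf13 against the hour, 1 point per mouse, with the mean and SD of 8 mice in black. In the fifth hour 1 mouse of each treatment lies far below the others for Klf3 and Klf13, and both were on 1 array.

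Counted together, 4 of the 10 members passed between treated and control mice in the first hour, 2 in the fifth and 2 in the ninth. Of all probes 17.5%, 18.1% and 14% passed at these hours, and of the brighter named genes 24.4%, 23.7% and 16.5%. The counts of the fifth and the ninth hour were near these shares, and that of the first was somewhat above them. The first-hour count included Klf2, whose call (limma, adjusted p = 0.049) was lost in 8 of 21 alternatives. With 10 members none of these counts is read as a result about the family. Over the hours, 0, 1 and 0 members passed in control mice between hours 1 and 5, 1 and 9, and 5 and 9, where 0.0053%, 0.537% and 0.0336% of all probes did, and 1, 3 and 0 in treated mice, where 0.546%, 4.02% and 0.661% did. In the same order of comparisons the unadjusted limma p was under 0.05 for 2, 5 and 5 members in control mice and for 4, 5 and 3 in treated mice. The share of all probes at that unadjusted threshold was not counted, so these counts cannot be set beside the shares above. The corticosterone effect differed between hours 1 and 9 for 4 members (Klf2, Klf7, Klf9 and Klf15), a test that 0.827% of all probes and 2.18% of the brighter named genes passed. It differed between hours 5 and 9 for 1, where 0.083% of all probes passed. Between hours 1 and 5 it differed for none of 10, where 0.0389% of all probes passed. In the same limma fit 3 of the 10 had an unadjusted p under 0.05 between hours 1 and 5, again without a share of all probes to compare. Median log2 differences over the 10 members were 0.07, -0.04 and -0.00 at the 3 hours.

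Relatives and partners of the members were measured with the same test. Among 16 other Kruppel-like and Sp factors, 12 of them with a mean intensity of 50 or more, Klf12 and Sp5 were lower in the first hour, when 17.5% of all probes passed, and none of the 16 passed for a change of the effect between hours 1 and 9 (adjusted p under 0.05). Klf11, the closest relative of Klf10, rose in treated mice from the first to the ninth hour by 0.58 (SE 0.11, adjusted p = 6.7e-04) at a mean intensity of 59.5. Sp5 was also higher at the ninth hour in that comparison, which 4.02% of all probes and 9.15% of the brighter named genes passed. At hour 5 Sp6 and Sp7 were higher and Sp5, at a mean intensity of 39.5, lower, 3 of the 16, while 18.1% of all probes and 23.7% of the brighter named genes passed. At hour 9, 4 of the 12 brighter factors were higher in treated mice and none of the 16 was lower, namely Sp3 (0.17, adjusted p = 0.029), Sp4 (0.21, adjusted p = 0.017), Sp6 (0.20, adjusted p = 0.041) and Sp7 (0.22, adjusted p = 0.02), while 14% of all probes and 16.5% of the brighter named genes passed. Of 16 cofactors that Kruppel-like factors recruit or that modify them, 3 were lower in the first hour, the acetyltransferases Kat2a and Kat2b and the ubiquitin ligase subunit Fbxw7, and none was higher, while 24.4% of the brighter named genes passed. At hour 5 Crebbp, an acetyltransferase, was higher and Kat2b and Fbxw7 lower, 3 of the 16 against the 23.7% given for that hour, and at hour 9 Kat2b was lower. From the first to the ninth hour Sin3a, Sin3b and Hdac3 rose in treated mice and Sin3b in control mice, and none of the 16 fell. These comparisons were passed by 9.15% and 1.28% of the brighter named genes.

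Glucocorticoid signalling genes were set beside Klf15 and Klf9. Of 14, 7 were higher and 3 lower in treated mice in the first hour, and 5 were lower and none higher in the ninth, while 24.4% and 16.5% of the brighter named genes passed at these hours. At hour 5, 4 were higher and 2 lower, where 23.7% passed. In treated mice 8 of the 14 fell and 1 rose from the first to the ninth hour, where 9.15% passed. The effect was lower in the ninth than in the first hour for 7 and higher for 1, where 2.18% passed. Fkbp5, a receptor cochaperone, was higher by 0.60 (SE 0.08, adjusted p = 1.9e-07) in the first and lower by a log2 difference of -0.28 (SE 0.08, adjusted p = 0.014) in the ninth hour. Tsc22d3, also called Gilz, was higher by 0.93 (SE 0.10) and lower by a log2 difference of -0.58 (SE 0.10) at these hours. Nr3c1, the glucocorticoid receptor, was lower by log2 differences of -0.54 (SE 0.06) and -0.18 (SE 0.06). Of 18 clock genes, Nr1d1, Dbp and Ciart were higher and Nfil3 lower in the ninth than in the first hour in control mice, the comparison that Klf4 passed and that 1.28% of the brighter named genes passed. Of 20 immediate early genes, Fos and Arc were lower in that comparison. Cell type markers were measured beside these genes. None of the 12 neuronal, 8 astrocyte, 8 oligodendrocyte, 8 microglial and 8 mural markers passed between hours 1 and 9 in control mice. In treated mice the neuronal gene Neurod6 and the microglial genes Cx3cr1 and Aif1 were higher at hour 9 than at hour 1, and none of these markers was lower, while 9.15% of the brighter named genes passed. Of the 8 choroid plexus markers none passed in any comparison of treated with control mice. At hour 1, when Klf15 was higher, Aldh1l1 was higher and Aqp4 and Sox9 lower among 8 astrocyte markers, whose summed intensity was 47290 to 51046 in control and 47652 to 58637 in treated mice. At hour 9, when Klf9 was lower, 1 astrocyte marker was higher and 2 lower, and among 12 neuronal markers 3 were higher and none lower. Of 8 oligodendrocyte markers, 2 were higher and 2 lower at hour 1 and 2 higher and 3 lower at hour 9. Their summed intensity had medians of 71496 in control and 64189 in treated mice at hour 1, with overlap. The medians were 73782 and 60908 at hour 5 and 73149 and 60902 at hour 9, also with overlap. Of 8 microglial markers 3 were lower at hour 1 and 1 at hour 9. Their summed intensity went the other way, with medians of 43534 in control and 46048 in treated mice at hour 1. At hour 5 the microglial medians were 46790 and 48839, and at hour 9 they were 46058 and 48466, with overlap at each hour. The neuronal marker Ociad2 was higher at hour 1. Of 8 mural markers only Rgs5 passed between treatments, and it was lower at hours 1, 5 and 9. At hour 5, when Klf7 and Klf10 were lower, 3 neuronal markers were higher and none lower, and 1 astrocyte marker was higher and 3 lower. Among oligodendrocyte markers 3 were higher and 2 lower at that hour, among microglial markers 1 and 2, and among endothelial markers 2 and 2. Of the brighter named genes 23.7% passed then. The part of cell composition in the results for Klf7, Klf9, Klf10 and Klf15 was not tested.

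The genes whose pattern was most like that of each of 4 members were found by Pearson's correlation of log2 intensity over 48 channels after the mean of each dye was removed, among 15427 named genes with a mean intensity of 50 or more. Each array gave 2 of the channels, so the points share arrays and slides, and the values are a description. Klf15 was most like Fas (r = 0.90), a death receptor, Ppp1r3g (0.87), a glycogen-targeting subunit of protein phosphatase, and Errfi1 (0.86), an inhibitor of EGF receptor signalling. For Klf9 these genes were Dhx33 (0.78), an RNA helicase, Fkbp5 (0.76) and Hif3a (0.76), a hypoxia-inducible factor subunit. Klf4 was followed by Tspan4 (0.76), Snhg16 (0.73) and Mrpl11 (0.71), and Klf2 by Phactr4 (0.71), Shroom4 (0.68) and Ramp3 (0.68). Among the members, Klf9 and Klf15 correlated at 0.64, Klf2 and Klf15 at 0.61, and Klf7 and Klf15 at -0.56. The highest value, 0.82 for Klf3 and Klf13, includes the array on which both were low in both dyes.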

How the data were processed

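Per the labels and methods, hippocampal RNA was hybridised in pairs to 24 two-colour arrays on 3 slides, and the authors deposited, for each array, scanner intensity values from Agilent Feature Extraction 10.7.3.1, which are not normalized, and a table of log2 ratios, which was used as an alternative. Median spot intensity values were background corrected by normexp, loess normalized within and quantile normalized between arrays in R 4.3.3 (limma 3.58.1, statmod 1.5.0); outlier spots were missing and copies averaged. All 6 groups entered 1 fit of limma's separate channel test (intraspot correlation 0.279, which joins the 2 mice of an array). P-values came from intensities with an offset of 50 and were adjusted by the Benjamini-Hochberg method over 56605 probes per comparison, and log2 differences, standard errors and signal intensities from those without offset. The number of arrays limits the precision; p-values measure the spread between mice, each housed singly. Per the methods, each group was drawn from several litters and controls were brothers of treated mice, so mice can share a litter; litters are not in the labels and did not enter the fit. Replicate numbers are in accession order and pair nothing. Probes were named through RefSeq transcript accessions (34566 of 56605). Every probe of each member was taken, and the brightest stands for the gene. Members and gene lists were chosen with earlier results of these data known. Alternatives covered normalization, filters, slides and the test, and leaving out replicate 7 of the fifth hour was added after seeing the data. Motifs were searched in RefSeq promoters. Values of 1 gene of the lists are not reported here. Python 3.11.15 and matplotlib 3.10.9 drew the figures.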

Additional observations from a re-analysis of the deposited data

Results flagged for a closer look

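In 8 of 60 groups of 8 mice, the mouse at one end was far from the nearest of the others (by Dixon's ratio at the 95% level, which chance passes in about 1 of 20 groups). For Klf3 these were control mice of the fifth hour (ratio 0.846), treated mice of the first (0.612) and treated mice of the fifth hour (0.792); for Klf13 they were control mice of the fifth (0.587) and treated mice of the first (0.570) and the fifth hour (0.751). The fifth-hour values of both genes came from replicate 7, the array on which 1703 probes were low in both dyes. The other 2 were Klf5 (0.638) and Klf7 (0.601) in control mice of the first hour.

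The corticosterone effect differed between hours, by the test of the difference itself, for Klf2 (log2 difference -0.75 from the first to the ninth hour), Klf7 (0.23), Klf9 (-0.41 from the first and -0.26 from the fifth to the ninth) and Klf15 (-0.69).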

How the results depend on the processing

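None of the 18 member results that passed the test (counting each comparison of a gene once) changed direction under any alternative that gave a value, and all 18 passed with slide as a block, without background correction and with median centring. Leaving out slide 1, 2 or 3 ended 8, 6 and 7 of the calls, and fits within a single slide, with 2 to 4 arrays per hour, kept 1 each. The number of members called between treated and control mice in the fifth hour went from 2 to 1 with p values without offset, without slide 1, 2 or 3, in a separate fit for the hour and in a test on array log ratios, and to 0 within each slide. Without slide 3 the 1 was Klf15, which was gained, and both Klf7 and Klf10 were lost. In the ninth hour 2 became 1 without slide 1, without slide 3 and within slide 1, and 0 within slides 2 and 3. In the first hour 4 became 0 within slide 1 and 1 within slides 2 and 3, 3 with p values without offset and without slide 1 or 2, and 5 with processed signals, array log ratios and deposited ratios (Klf13 was gained). The highest counts were 3 in the fifth hour, with slide as a block (Klf15 was gained), and 3 in the ninth, when any probe of a gene counted (Klf10 was gained through its probe that was well above background in 1 of 48 channels, so this count is no call of Klf10). Between hours 1 and 9, the 1 called in control mice became 0 without slide 1, without slide 2 and within each slide. The 3 called in treated mice lost Klf4 without slide 1 or 2 and became 0 within each slide. Between hours 1 and 5 in treated mice, 1 became 2 with slide as a block and with probes of a mean intensity of 50 or more (Klf2 was added, -0.53, adjusted p = 0.043 and 0.048), and 0 within each slide. For the difference of the effect between hours 1 and 9, 4 became 2 (Klf9 and Klf15) without slide 1 or 3, and 0 within each slide. Of these 4, only Klf7 was lost without slide 2 and with the deposited ratios. Between hours 5 and 9, 1 became 0 with p values without offset, without slide 1, 2 or 3, within each slide and without replicate 7 of the fifth hour, an alternative chosen after seeing the data. Fewer arrays entered the fits that left out slides, and the cause of the other changes was not tested. Replicate numbers follow accession order and pair no samples, but the 2 mice of an array can be paired: the paired test on array log ratios kept 12 of 13 calls between treatments or of the effect over hours and ended that of Klf7 in the fifth hour (adjusted p = 0.054). The lack of exchanged dyes limits comparisons of treated with control mice for small differences.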
